A study of Mus musculus with 3 samples.

Results

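The proteins of the mitochondrial ribosome were described here at the level of their transcripts in mouse neural stem cells (NSCs). Members were chosen by name alone, as all genes on the array whose deposited symbol starts with Mrpl or Mrps and a number. There were 75 such genes of 27666 named genes, measured by 125 of 41174 probes. At the brightest probe of each gene, all 75 stood well above background in either channel of every array, and no member spot was saturated in either channel.

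RNA from NSCs of genotype Dnmt3a-/- (labelled KO) was hybridised together with RNA from wild-type NSCs (labelled WT) on 3 two-colour Agilent arrays, with a separate biological replicate of each genotype on each array. Dnmt3a encodes an enzyme that adds methyl groups to DNA. Cells of both genotypes came from mouse embryonic stem cells that were kept for 7 days in serum-free medium with EGF and bFGF (10 ng/ml each), carried through neurospheres and grown as adherent cultures. The labels do not give the deleted part of Dnmt3a, the number of stem cell clones, or whether replicates came from separate derivations, so p-values measure only the spread between these 3 arrays. RNA labelled KO carried the green dye and RNA labelled WT the red dye on every array, so a dye bias of a probe and a genotype difference cannot be told apart.

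The mitochondrial ribosome, or mitoribosome, translates the few proteins encoded by mitochondrial DNA, all of which are core membrane subunits of oxidative phosphorylation. Its ribosomal RNAs come from mitochondrial DNA, whereas its proteins are encoded in the nucleus, made in the cytosol and imported. Some of these proteins have counterparts in bacterial ribosomes and others occur only in mitochondria. Neural stem cells are known to draw much of their energy from glycolysis and to raise oxidative phosphorylation as they differentiate.

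Median spot signals lay between 75.7 and 105 over local backgrounds of 39.5 to 43, and 63.6% to 68.9% of probes were well above background in a channel. Across all tested genes the log2 ratios of pairs of arrays correlated at r = 0.91 to 0.93, and the median SD of a gene was 0.056. Dnmt3a itself went against its label, with log2 ratios of 1.07, 0.97 and 0.92, so the directions below compare the RNAs by their labels and would be opposite if the channels had been mislabelled. All 12 neural stem cell markers were detected, with a summed signal of 57058 to 58446 in the channel labelled KO and 67867 to 70904 in the channel labelled WT, and 8 of the 12 were lower and 2 (Pax6 at 0.24, Prom1 at 0.14) higher in the RNA labelled KO, where 25.5% of all tested genes were lower and 22.5% higher. Of 9 embryonic stem cell markers, Pou5f1, Nanog and Zfp42 were too dim to be tested. Of the other 6, Klf4 at 0.59 and Dppa5a at 0.17 were higher and 4 did not pass, and their summed signal was 1691 to 1770 against 1297 to 1358, with Klf4 the brightest. Fibroblast and mesenchyme markers were bright, at 154500 to 158305 against 204324 to 223521, and 6 of 10 were lower, led by Col1a2 at -1.48, while Prrx1 at 0.28 and Twist1 at 0.27 were higher. At the lowest of the settings tried Prom1, Dppa5a, Prrx1 and Twist1 were below 0. The part of these shifts in the values below was not tested, and fewer cells of a type and less RNA per cell cannot be told apart in bulk RNA.

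After loess, mitoribosomal transcripts differed little between the RNAs, and in both directions. In the RNA labelled KO 10 of the 75 genes passed the threshold as higher, 25 passed as lower and 40 did not pass (limma, Benjamini-Hochberg adjusted p under 0.05 over 18068 genes). The share past the threshold was 46.7% among the members, against 47.9% of all tested genes. Higher genes made up 13.3% of members against 22.5% of all genes, and lower genes 33.3% against 25.5%. These directions rest on the loess step that removes a trend with brightness: with each array only centred on its median log ratio, none of the 10 stayed above 0 and 72 members were called lower.

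The differences were small after loess. The member farthest from equality differed by 1.22-fold, and no member reached 1.5-fold, a size reached past the threshold by 4.01% of all tested genes. These sizes rest on the loess step as well: with median centring the log2 ratios of the members ran from -0.74 to -0.19. The median log2 ratio of the members was -0.024, against -0.011 for all genes, and the median size of the ratio irrespective of sign was 0.079 against 0.099. On arrays 1, 2 and 3 the median of the members was -0.059, -0.035 and -0.012, against -0.018, -0.0042 and -0.0095 for all tested genes. For the 40 genes that did not pass, the 95% intervals of the log2 ratio after loess lay within -0.17 and 0.18. That bounds a difference only under this normalization, without showing that none exists. The called lower member with the weakest evidence had an adjusted p of 0.046. The uncalled member nearest to the threshold had 0.057, but it lay above 0, at a log2 ratio of 0.086. The nearest uncalled member below 0 was Mrpl46, with an adjusted p of 0.095.

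**Figure D1:**
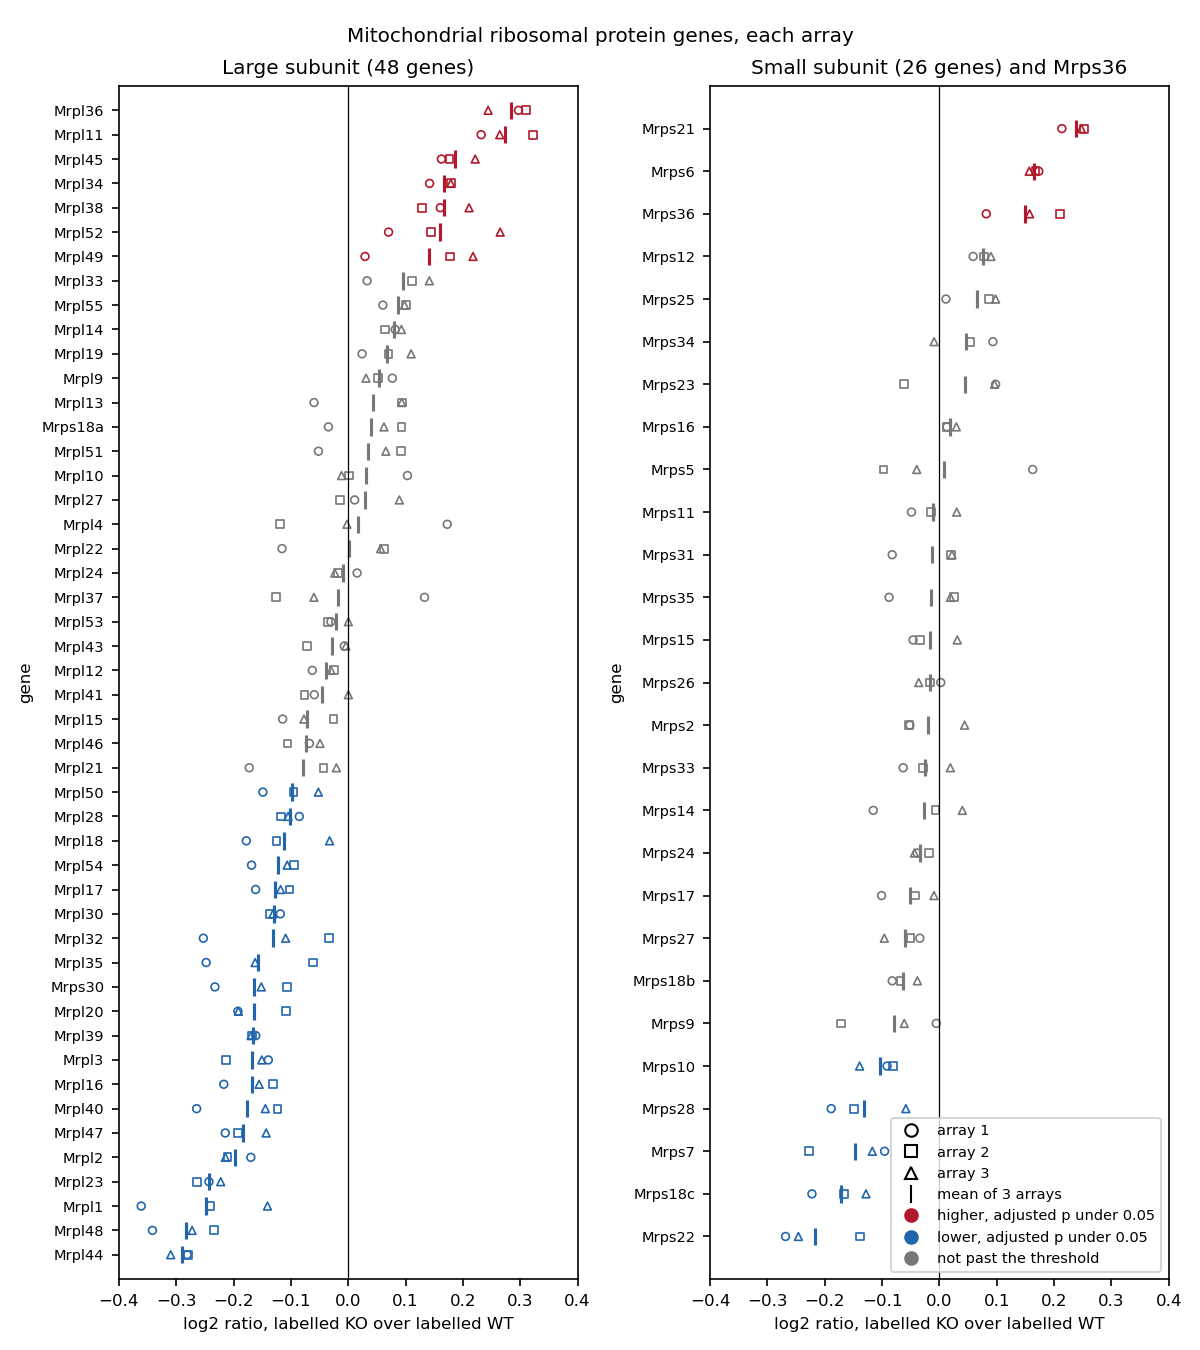
Log2 ratio of RNA labelled KO over RNA labelled WT (x axis) for each mitochondrial ribosomal protein gene (y axis), with open symbols for the 3 arrays and a tick for their mean; red marks genes higher and blue genes lower at an adjusted p under 0.05, and grey the rest. The means run from -0.29 to 0.28; with median centring in place of loess all 10 red genes lay below 0.

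The arrays ranked the members alike. Across the 75 genes, which are not independent replicates and share the arrays, the ratios correlated at r = 0.75 between arrays 1 and 2, 0.82 between arrays 1 and 3 and 0.91 between arrays 2 and 3. The sign was the same on all 3 arrays for 53 members, 18 of them above 0 and 35 below, where 68.9% of all genes kept 1 sign, 32% above 0 and 36.9% below. Array 1 gave the lowest ratio of the 3 for 43 members, array 2 for 19 and array 3 for 13. The like count over all genes was not made, but their median was also lowest on array 1 (-0.018, -0.0042 and -0.0095).

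Among the 48 proteins of the large subunit, which joins amino acids and holds the exit tunnel, 20 genes were lower, 7 were higher and 21 did not pass. That is 41.7% lower and 14.6% higher, against 25.5% and 22.5% of all tested genes. The count includes Mrps30 and Mrps18a, which are named as small-subunit proteins but sit in the large subunit. Of the 30 with a bacterial counterpart 13 were lower (43.3%) and 3 higher (10%), with a median of -0.056. Of the 18 found only in mitochondria 7 were lower (38.9%) and 4 higher (22.2%), with a median of -0.036. Mrpl44 had the lowest ratio of all members. It encodes a protein with a fold related to ribonuclease III that lies near the tunnel exit, and its log2 ratios were -0.28, -0.28 and -0.31. Its mean was -0.29 ± 0.017 (SD, n = 3, limma adjusted p = 0.00022), or 1.22-fold lower, and the 3 arrays were nearly alike. Its dimmer probes, at -0.014 and -0.052, did not pass, and the mean over its 3 probes was -0.12 (adjusted p = 0.027).

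Other proteins around the tunnel exit, where the new chain leaves toward the inner membrane, had calls in both directions. Mrpl23, at the rim of the exit, was at -0.24, -0.26 and -0.22 (mean -0.24 ± 0.021, adjusted p = 0.00056). Mrpl45, which holds the ribosome to the inner membrane, went the other way at 0.16, 0.18 and 0.22 (mean 0.19 ± 0.031, adjusted p = 0.0023), although it was at -0.32 with median centring. No array of Mrpl45 overlapped with any array of Mrpl23 or Mrpl44. That adds no support, since these genes were named for being among the highest and the lowest members. Of the 7 tunnel and membrane proteins listed, 4 were lower (Mrpl44, Mrpl23, Mrpl47 at -0.18 and Mrpl39 at -0.17) and Mrpl45 was higher. Mrpl22 at 0.0013 and Mrpl24 at -0.0085 did not pass. That is 57.1% lower and 14.3% higher, against 25.5% and 22.5% of all tested genes. The list leaves out Mrpl4, which also lines the tunnel and did not pass at 0.017, so these shares hold for the listed genes only.

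The central protuberance is the head of the large subunit that faces the small one. Of its 6 listed proteins 4 were lower, 1 was higher and 1 did not pass (66.7% lower and 16.7% higher, against 25.5% and 22.5% of all genes), with a median of -0.14. The list was not checked against a structure and need not be complete, so these shares hold for the listed genes only. Mrpl48, found only in mitochondria, was at -0.34, -0.23 and -0.27 (mean -0.28 ± 0.055, adjusted p = 0.00044). Mrpl40 was at -0.26, -0.12 and -0.14 (mean -0.18 ± 0.076, adjusted p = 0.0068), so array 1 was the farthest from 0 for both genes and all arrays were below 0. Mrps30 was at -0.16 ± 0.064 and Mrpl18 at -0.11 ± 0.074, but the call of Mrpl18 was lost without array 1 (-0.079, adjusted p = 0.16) or without array 2 (-0.11, adjusted p = 0.11). Mrpl46 at -0.074 did not pass (adjusted p = 0.095), and Mrpl38 was higher by its brightest probe only.

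The stalk recruits the translation factors that split GTP. Mrpl11, at its base, was at 0.23, 0.32 and 0.26 (mean 0.27 ± 0.046, adjusted p = 0.00044), or 1.21-fold higher, and it was the second highest member; with median centring it was at -0.27, next to an all-gene median of -0.26. Mrpl54 was at -0.17, -0.094 and -0.11 (mean -0.12 ± 0.040, adjusted p = 0.018), a call lost without array 1 (-0.10, adjusted p = 0.060) or without array 3 (-0.13, adjusted p = 0.064). The remaining stalk proteins did not pass: Mrpl10, the anchor of the stalk, was at 0.031, Mrpl12, its repeated mobile arm, at -0.039, and Mrpl53 at -0.022. Mrpl11 and Mrpl54 therefore lay on opposite sides of 0 on every array.

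Mrpl36, a small zinc-binding protein of the subunit core, had the highest ratio of all members. Its arrays gave 0.30, 0.31 and 0.24 (mean 0.28 ± 0.035, adjusted p = 0.00030), or 1.22-fold higher. With median centring it was at -0.20, which was 0.066 above the median of all genes. Mrpl34, another short protein with a bacterial counterpart, was at 0.14, 0.18 and 0.18 (mean 0.17 ± 0.022, adjusted p = 0.0037), and at -0.31 with median centring.

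Mrpl1, which forms the mobile L1 stalk on the side where spent tRNA leaves, was at -0.36, -0.24 and -0.14. The mean was -0.25 ± 0.11 (adjusted p = 0.0031), and array 1 lay farthest from 0. When its 3 probes were averaged the ratio was -0.079 and the call was lost (adjusted p = 0.11). Mrpl2, which helps to shape the catalytic centre, was at -0.17, -0.21 and -0.21 (mean -0.20 ± 0.025, adjusted p = 0.0016). Mrpl52 was at 0.070, 0.14 and 0.27 (mean 0.16 ± 0.098, adjusted p = 0.017), a call lost without array 3 (0.11, adjusted p = 0.11).

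The small subunit binds the messenger RNA and reads its codons. Of its 26 proteins 5 were lower, 2 were higher and 19 did not pass, with a median of -0.018. Lower genes thus made up 19.2% here and 41.7% in the large subunit, where all genes gave 25.5%; the difference between the subunits was not tested. Higher genes made up 7.69% of the small subunit, against 22.5% of all genes. Among the 16 proteins with a bacterial counterpart 4 were lower (25%) and 2 higher (12.5%). Among the 10 found only in mitochondria 1 was lower (10%) and none higher. Mrps22, of the second kind, was at -0.27, -0.14 and -0.25 (mean -0.22 ± 0.069, adjusted p = 0.0022), below 0 on every array.

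Mrps21 was the highest small-subunit gene. Its arrays gave 0.21, 0.25 and 0.25 (mean 0.24 ± 0.021, adjusted p = 0.00063), or 1.18-fold higher; with median centring it was at -0.19, which was 0.076 above the median of all genes. Mrps6, of the subunit's platform, was at 0.17, 0.17 and 0.16 (mean 0.17 ± 0.0085, adjusted p = 0.0035) and at -0.39 with median centring. Its call was lost with the scanner software's processed signals (0.12, adjusted p = 0.051) and in the authors' deposited table (0.12, adjusted p = 0.096). A dimmer probe of Mrps6 was at 0.053 and did not pass (adjusted p = 0.23).

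The 3 paralogs of the Mrps18 family, of which Mrps18b and Mrps18c are built into the small subunit and Mrps18a into the large subunit, differed in their calls. Mrps18c was at -0.22, -0.17 and -0.13 (mean -0.17 ± 0.047, adjusted p = 0.0045). Mrps18b did not pass at -0.063 (adjusted p = 0.14), nor did Mrps18a at 0.040 (adjusted p = 0.40). At the brightest probes, all arrays of Mrps18c were below all arrays of both paralogs. A dimmer probe of Mrps18c was at -0.20, -0.036 and -0.0033 (mean -0.080, adjusted p = 0.18). It did not pass, and its range overlapped with that of Mrps18b.

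The largest spread between arrays belonged to 3 uncalled genes. Mrpl4, which lines the exit tunnel, was at 0.17, -0.12 and -0.0023. Mrps5, near the entry of the messenger RNA, was at 0.16, -0.098 and -0.039, and Mrpl37, found only in mitochondria, at 0.13, -0.13 and -0.060. In all 3 genes array 1 was the high array and array 2 the low one, with SDs of 0.13 to 0.15.

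Mrps36 carries a ribosomal name but is known as a subunit of the oxoglutarate dehydrogenase complex of the citric acid cycle. Its ratios were 0.082, 0.21 and 0.16 (mean 0.15 ± 0.065, adjusted p = 0.012). The call was lost without array 2 (0.12, adjusted p = 0.063) or without array 3 (0.15, adjusted p = 0.059), and the mean was -0.31 with median centring. A dimmer probe of Mrps36 was at 0.0042 and did not pass (adjusted p = 0.94). Subunits of the mitoribosome that bear other names were read separately. None of Dap3, Ptcd3, Chchd1, Aurkaip1, Gadd45gip1, Mrpl57 and Mrpl58 passed, where 47.9% of all tested genes did. Their means ran from -0.084 for Chchd1 (adjusted p = 0.058) to 0.069 for Ptcd3. Mrpl42, deposited under an older symbol and therefore outside the name match, was at -0.25, -0.12 and -0.10 (mean -0.16 ± 0.085, adjusted p = 0.014).

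**Figure D2:**
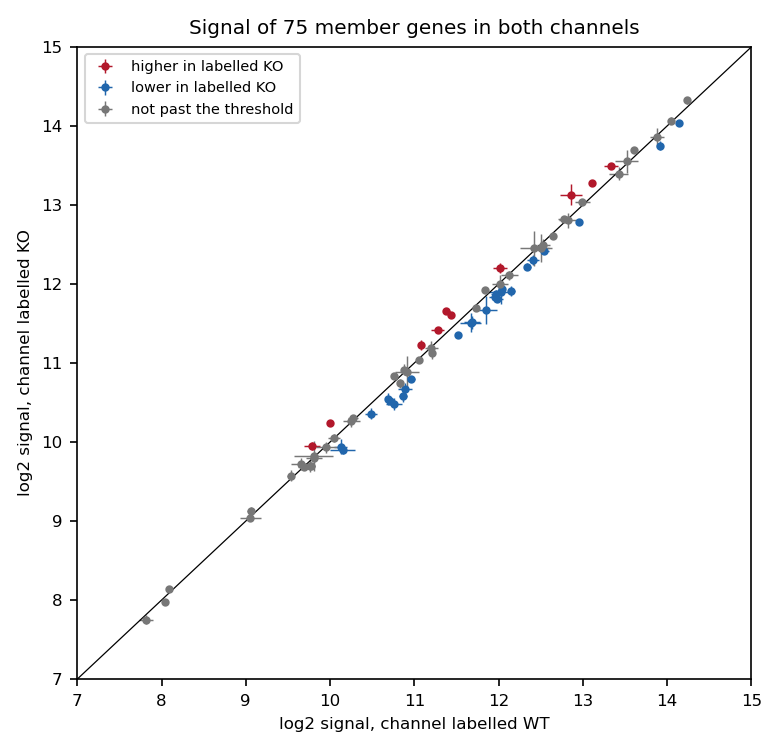
Mean log2 signal of the brightest probe of each of the 75 genes in the channel labelled WT (x axis) and the channel labelled KO (y axis). Values were taken after loess and a scaling of average signals between arrays, which leaves the ratio of the channels unchanged. Bars give 1 SD over 3 arrays, and the line marks equality. Genes lie close to the line over the whole range of signals, and the 1.22-fold differences of Mrpl44 and Mrpl36 are small beside the range.

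Member probes were bright. The median of their average log2 signal was 11.5, against 8.34 for all tested genes, though the signals of different probes also depend on probe sequence and give no order of transcript levels. The brightest were Mrpl33 at 14.3, Mrpl28 and Mrps16, both at 14.1, and the dimmest Mrps18b at 7.79, Mrps27 at 8.01 and Mrpl9 at 8.11. Of these 6, Mrpl28 alone passed, at -0.10 ± 0.016 (adjusted p = 0.030). That call was lost without array 2 (-0.095, adjusted p = 0.14) or without array 3 (-0.10, adjusted p = 0.12), and the ratio was 0.025 with the scanner software's processed signals. A dimmer probe of Mrpl28 was at 0.022 and did not pass (adjusted p = 0.68). Mrpl33 was at 0.033, 0.11 and 0.14 (mean 0.095, adjusted p = 0.058), and it passed as higher without array 1 (0.13, adjusted p = 0.030), with the scanner software's processed signals (0.19, adjusted p = 0.028) and in the authors' deposited table (0.20, adjusted p = 0.021). Mrps16 was at 0.018, while Mrps18b, Mrps27 and Mrpl9 lay at -0.063, -0.060 and 0.053.

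The direction of the members depended on the normalization. Without loess, the median log2 ratio fell with signal, from 0.11 in the dimmest of 20 bins of genes to -0.60 in the brightest, and it was -0.48 in the bin with signals of 11.5 to 12.1, which holds the median member. With median centring alone the members had a median of -0.52 against -0.26 for all genes, and 71 of the 75 lay below that all-gene median. The 25 lower members were all below it, and 3 of the 10 higher members, Mrpl36, Mrps21 and Mrpl38, were above it. Under this setting 72 members were called lower and 0 higher, where 53% of all genes were called lower and 4.22% higher. The trend runs along the dye as well as the genotype, and no array has the dyes exchanged, so the dye and the genotype cannot be told apart as its source.

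**Figure D3:**
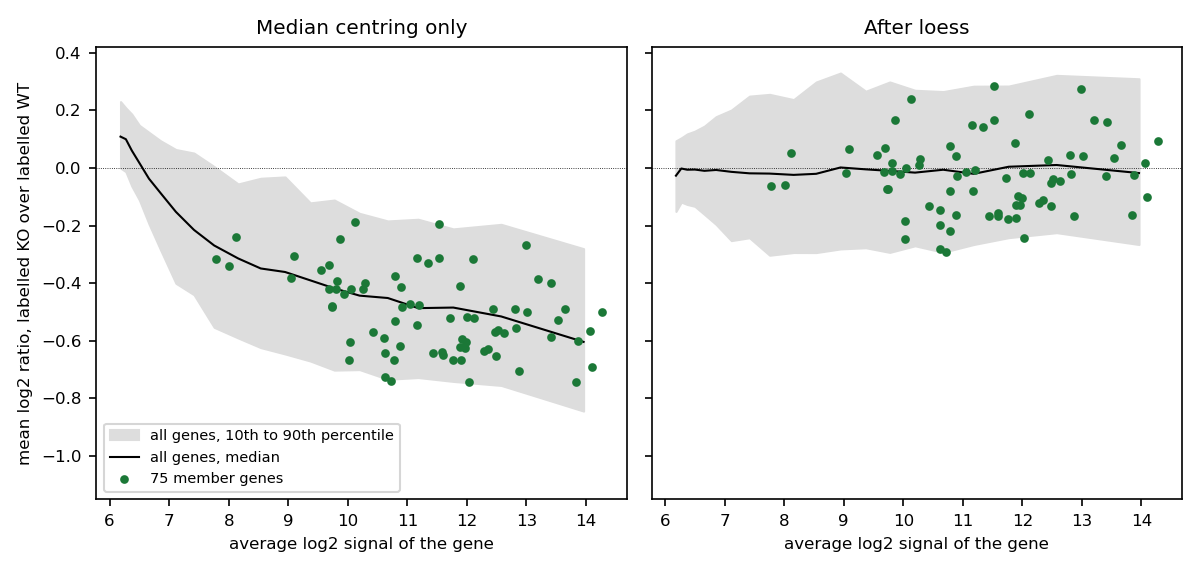
Mean log2 ratio of RNA labelled KO over RNA labelled WT (y axis) against average log2 signal (x axis) with median centring only (left) and after loess (right); the black line is the median of all genes in 20 bins, the grey band their 10th to 90th percentile, and green points are the 75 members. The members follow the falling line on the left, around a median of -0.52, and scatter around 0 on the right, around a median of -0.024.

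Several genes had more than 1 probe, which gives a second reading of the same gene. Of the 125 probes 119 were tested, and for 117 every array gave a signal well above background in either channel. Taken singly, 15 were higher and 32 lower, where 44.3% of all tested probes were called in either direction. For the 17 called genes with other tested probes, 19 of the 27 dimmer probes had the sign of the brightest, 6 were past the threshold the same way and 2 the opposite way. The other 18 called genes rest on 1 tested probe each. Probes designed on RefSeq transcripts gave 15 higher and 28 lower of 104 tested, and those designed on other transcripts, with a lower median log2 signal of 7.16 against 11.0, gave 0 higher and 4 lower of 15.

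Mrpl38 and Mrpl52 had probes past the threshold in opposite directions. The sequences below are shown because they read different places of the same gene; each is the last 30 bases of a 60-base probe, in lower case, with the polyadenylation signal AATAAA in capitals where the letters occur. Positions are those of the deposited files on mm7, for the whole probe.
Mrpl38, higher (chr11:116240999-116241058): acattcatctccgagggggaactgtcgcag
Mrpl38, lower (chr11:116247337-116247396): tagcttaatctgtctgtaaaactgagactc
Mrpl52, higher (chr14:49296693-49296752): tactgagaagcccacttccgaatcAATAAA
Mrpl52, lower (chr14:49294649-49294708): gtgtattttgacaattcgtttgcaaatgta
Mrpl43, higher (chr19:44899495-44899554): ttggatttcaagctcaggccgagtaggtgg
Mrpl43, not past (chr19:44899359-44899418): ttggcctccttgcaagctgagatgtgagaa

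Mrpl38 read 0.16, 0.13 and 0.21 at its first probe (mean 0.17 ± 0.042), designed on a RefSeq transcript, and -0.26, -0.15 and -0.15 at the second (mean -0.19 ± 0.066), which lies 6278 bases away and was designed on another cDNA. A further probe was at -0.046 and did not pass. The mean over all 3 probes was -0.022, and the call was lost with it (adjusted p = 0.59) and in the authors' deposited table (0.14, adjusted p = 0.054). The first probe was at 0.095 when all spots entered the normexp fit. Mrpl52 read 0.16 ± 0.098 at its first probe and -0.18, -0.21 and -0.29 at the second (mean -0.23 ± 0.054), 1984 bases away and also designed on another cDNA, and the mean over its probes was 0.0034 (adjusted p = 0.93). The arrays of the paired probes did not overlap in either gene. That adds no support, since both genes were named for having probes called in opposite directions. Without an annotation on mm7 the exon or untranslated region that each probe reads is not stated here.

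Mrpl43, chosen for its probes after their values were seen, had both probes on 1 RefSeq transcript with 76 bases between them. Its brighter probe was at -0.028 ± 0.039 and its dimmer probe at 0.17 ± 0.043, so readings of neighbouring sequence differed by more than the spread between arrays. The letters AATAAA occurred on the probe strand in 12 of the 125 member probes (9.6%) and in 4.78% of all 41174 probes, among them the brightest probe of Mrpl52.

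**Figure D4:**
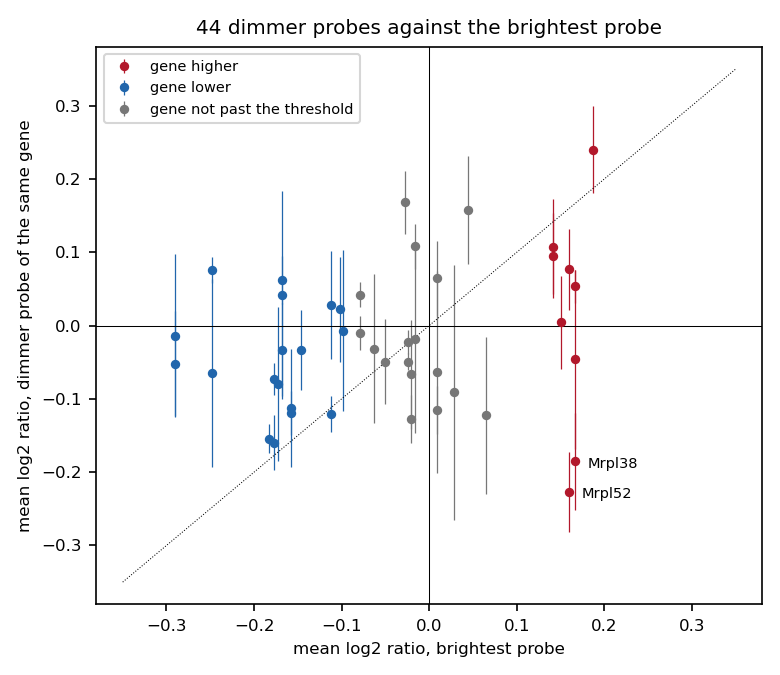
Mean log2 ratio of each of 44 dimmer probes (y axis, with bars of 1 SD over 3 arrays) against that of the brightest probe of the same gene (x axis); red, blue and grey give the call of the gene, and the dotted line marks equal readings. Of the 44 dimmer probes 29 had the sign of the brightest, and the labelled probes of Mrpl38 at -0.19 and Mrpl52 at -0.23 stand below 0 for genes called higher, a call that median centring turns below 0.

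Other genes of mitochondrial translation are given by list, after loess, beside the 22.5% of all tested genes that were higher and the 25.5% that were lower. Of 15 translation factors 3 were higher and 3 lower (20% each). Mrrf, which helps to take the ribosome apart after termination, was at 0.22, 0.29 and 0.34 (mean 0.28 ± 0.063, adjusted p = 0.00046), and at -0.17 at the lowest of the settings tried. Tufm, the elongation factor that brings in charged tRNA, was at 0.15 ± 0.030, and -0.35 at its lowest. Mtfmt, which formylates the initiator tRNA, was at -0.13 ± 0.046, and Mtrf1, a release factor, at -0.11 ± 0.023. Both of these calls were lost without array 1 or without array 3, at ratios of -0.13 to -0.10, and that of Mtrf1 also without array 2 (-0.10, adjusted p = 0.11).

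Of 22 genes for ribosome assembly and ribosomal RNA modification 7 were lower (31.8%) and none higher. Tfb1m, which methylates the small-subunit ribosomal RNA, was at -0.45, -0.34 and -0.33 (mean -0.37 ± 0.064, adjusted p = 0.00011), or 1.30-fold lower, and Mrm1, a methyltransferase of the large-subunit RNA, was at -0.21 ± 0.053, and at -0.085 with the mean over its probes. The call of Mrm1 was lost with the scanner software's processed signals and in the authors' deposited table, at -0.13 in both. All arrays of Tfb1m were below all arrays of Mrm1, and the mean of Tfb1m was below that of every member. The calls of Eral1, Gtpbp10, Rbfa and Ngrn in this list were each lost without array 2 and without array 3, where their ratios were -0.14 to -0.079, and that of Ngrn also without array 1 (-0.099, adjusted p = 0.062).

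Of 20 genes that charge mitochondrial tRNA 6 were lower (30%) and 3 higher (15%). Lars2, for leucine, was at 0.79, 0.39 and 0.40 (mean 0.53 ± 0.22, adjusted p = 0.00081), but its WT-channel spot was saturated on each array, and it was at -0.13 at the lowest setting. Cars2, for cysteine, was at 0.19 ± 0.050 and -0.18 at its lowest. Sars2, for serine, was at -0.27, -0.33 and -0.27 (mean -0.29 ± 0.033), and Gatb, part of the complex that makes glutaminyl-tRNA, was at -0.24 ± 0.022. With normexp fitted on all spots these genes were at -0.15 and -0.14.

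Of 20 genes for the transcription and copying of mitochondrial DNA and their regulators 6 were higher and 6 lower (30% each). Tfam, which packs mitochondrial DNA and starts its transcription, was at -0.17, -0.47 and -0.46 (mean -0.37 ± 0.17, adjusted p = 0.0018), with array 1 closest to 0, and at -0.18 with the mean over its probes. Mgme1, a nuclease of mitochondrial DNA, was at -0.26 ± 0.029. The nuclear receptor Esrra was at 0.38, 0.39 and 0.42 (mean 0.40 ± 0.021), and -0.048 at its lowest, and the coactivator Ppargc1b was at 0.34 ± 0.057 and stayed above 0 in all settings tried. Nrf1, which activates many nuclear genes of mitochondria and was named here after its value was seen, was at -0.19, -0.24 and -0.32 (mean -0.25 ± 0.065, adjusted p = 0.0011), and at -0.088 with normexp fitted on all spots. After loess, Nrf1 and Tfam were below 0 and Esrra and Ppargc1b above 0 on every array. Of the other factors whose motifs are counted below, Gabpa at 0.019 and Yy1 at 0.052 did not pass. Myc was higher at 0.30 ± 0.060, and at -0.17 at the lowest of the settings tried.

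Of 14 genes for membrane insertion and quality control 4 were lower (28.6%) and 2 higher (14.3%). The chaperones of the matrix Hspd1 and Hspa9 were at -0.27 ± 0.022 and -0.25 ± 0.062. Immp1l, part of an inner membrane peptidase, was at 0.16 ± 0.063, a call lost without array 3 (0.13, adjusted p = 0.063). Afg3l2, a protease that trims Mrpl32 before assembly, was at 0.24, 0.033 and 0.14 (mean 0.14 ± 0.11, adjusted p = 0.033), a call lost without array 1 (0.088, adjusted p = 0.14) or without array 3 (0.14, adjusted p = 0.11). Its substrate Mrpl32 was at -0.25, -0.033 and -0.11 (mean -0.13 ± 0.11, adjusted p = 0.046), a call lost without array 1 (-0.071, adjusted p = 0.18) or without array 3 (-0.14, adjusted p = 0.10). Both higher genes of this list were below 0 at their lowest setting.

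**Figure D5:**
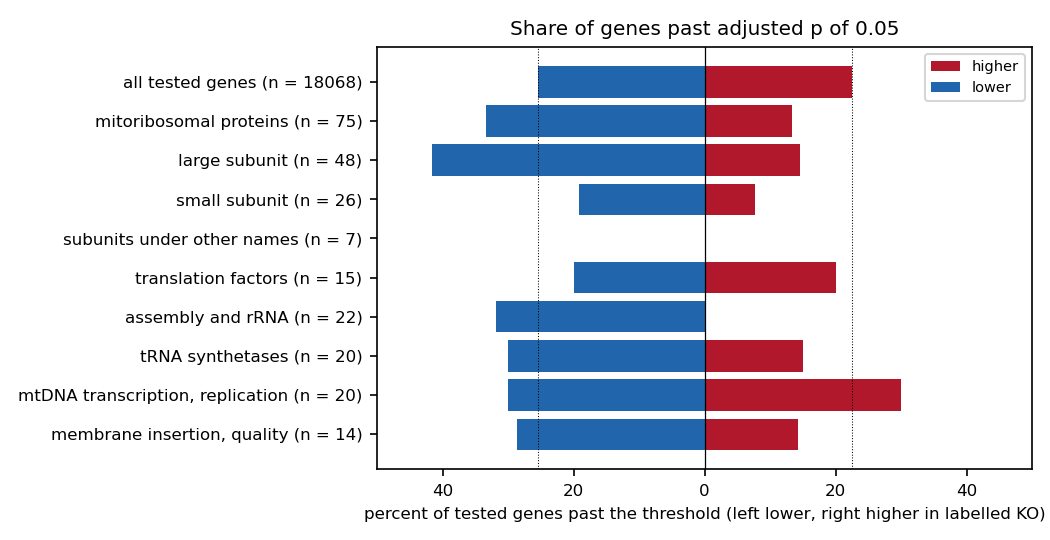
Percent of tested genes past an adjusted p of 0.05 in each gene list (y axis, with the number tested), drawn to the right for genes higher and to the left for genes lower in the RNA labelled KO; dotted lines mark all tested genes at 22.5% and 25.5%. The large subunit reaches 41.7% lower and the small subunit 19.2%, and the shares of higher genes depend on the loess step.

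The ribosome of the cytosol offered a comparison with another ribosome on the same arrays. Among 81 of its genes 34 passed as higher and 10 as lower, with a median of 0.089, which is 42% higher and 12.3% lower against 22.5% and 25.5% of all genes. Saturation touched this comparison: 47 of the 81 were saturated in the channel labelled WT on at least 1 array, among them 29 of the 34 higher genes, against 0 of 75 members of the mitoribosome. With saturated spots left out 61 of the 81 were tested, and 13 were higher (21.3%) and 11 lower (18.0%).

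Promoter sequence was available for 66 of the 75 members, as 72 windows from 250 bases before to 50 bases after a transcription start (RefSeq, GRCm38.p6). The motif of the transcription factor NRF1, searched on both strands with 1 free base in its middle, occurred in 12 of these windows (16.7%) and in 4.60% of all 32851 windows. The ETS motif CCGGAAG, bound by GABPA among others, occurred in 24 (33.3%, against 8.86%), and the YY1 motif AAGATGGC in 11 (15.3%, against 2.75%). A TATAAA sequence occurred in 5 (6.94%, against 13.6%), and the CACGTG sequence bound by Myc in 7 (9.72%, against 7.15%). Of these 7 windows 3 overlap at Mrpl2, so that 5 of 66 genes held it (7.58%), against 8.09% of all genes with a window. A match of letters is no measure of binding.

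The NRF1 motif occurred with every kind of call: in 2 of 9 windows of higher members, 5 of 28 of lower members and 5 of 35 of members that did not pass. The ETS motif occurred in 3, 6 and 15 of these windows, and the YY1 motif in 2, 3 and 6. The stretches below, each of 60 bases upstream of the start and 5' to 3' on the strand of the gene, are shown because matches to the NRF1 motif (in capitals), which differ in their central bases, stand before members that were lower (Mrpl44, Mrpl39, Mrpl32) and members that were higher after loess (Mrpl45, Mrps21). Coordinates are on GRCm38.p6.
Mrpl44 (chr1:79775958-79776017, plus strand): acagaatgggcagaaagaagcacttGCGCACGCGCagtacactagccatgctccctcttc
Mrpl39 (chr16:84735335-84735394, minus strand): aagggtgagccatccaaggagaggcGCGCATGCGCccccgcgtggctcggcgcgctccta
Mrpl32 (chr13:14613090-14613149, minus strand): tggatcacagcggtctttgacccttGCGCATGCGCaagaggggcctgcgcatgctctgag
Mrpl45 (chr11:97315653-97315712, plus strand): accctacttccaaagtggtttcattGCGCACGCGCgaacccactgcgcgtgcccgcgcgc
Mrps21 (chr3:95871571-95871630, minus strand): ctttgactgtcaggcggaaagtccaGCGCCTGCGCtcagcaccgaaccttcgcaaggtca

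The central bases of the motif varied between these genes. Mrpl45 had 3 matches in its window, of which the 1 shown was chosen because its 10 letters are those of Mrpl44, and the ratios of these genes were 0.19 and -0.29. Mrpl39 and Mrpl32 had the form that reads alike on both strands, which occurred in 3 of the 72 member windows (4.17%) and in 0.971% of all windows.

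Of the 35 calls, 21 held when each array was left out in turn and 14 were lost without at least 1 of them. Under all 12 alternative settings 8 lower members kept their call: Mrpl44, Mrpl48, Mrpl23, Mrps22, Mrpl2, Mrpl47, Mrpl40 and Mrps18c. Mrpl36, Mrpl11, Mrps21, Mrpl45 and Mrpl34 stayed higher under all of them except median centring, which put each of them below 0. That setting called 72 of the 75 members lower, among them all 25 lower ones, so holding under it adds no support to a lower call.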

How the data were processed

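Agilent Feature Extraction 9.5.3.1 made the scanner output, per the file headers. The deposited files hold the mean spot signal and the median local background as raw intensity values, probe positions on mm7 and a log10 ratio of red over green. The log10 ratio, per the file headers, served only to check direction. The authors' deposited value table was read as log2 ratios of labelled KO over labelled WT, since r against the scanner's ratio of red over green was -0.998, -0.996 and -0.992 on the 3 arrays. The median of each column was 0.0276, and its scaling and centring are not stated in the sources used here.

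There were 43379 spots other than controls per array. Background was corrected with limma 3.58.1 (R 4.3.3), by normexp with offset 50 fitted on spots without the scanner's outlier marks, followed by loess within arrays with control spots at weight 0. The offset draws ratios of dim spots toward 0. Control spots and 170, 173 and 242 marked spots were left out, saturated spots were kept, and spots of a probe were averaged. A probe was tested if well above background in 1 channel on all 3 arrays, which kept 26697 probes, and the brightest tested probe stood for its gene. Of 41174 probes, 23082 were named by accession, 6582 by symbol and 3073 by synonym through a RefSeq table, and 8437 kept the file's name. Mean log2 ratios of 18068 genes were tested against 0 with lmFit and eBayes in a two-sided test, leaving 2 degrees of freedom for each gene, with Benjamini-Hochberg adjustment and a threshold of 0.05. The procedure was tested on simulated data. Signal levels per channel were taken after loess and Aquantile scaling. All 3 arrays lay on 1 slide. Their number limits the precision.

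The members, gene lists and tests were chosen with earlier results of these data known, and so was the normexp fit on unmarked spots. Named were the 8 highest and 8 lowest members, the 3 brightest, the 3 dimmest, the 3 of largest SD, members with opposed probes, the stalk, the Mrps18 family and Mrps36, and the 2 highest and 2 lowest called genes of each other list. The other listed genes of the tunnel and central protuberance and the assembly genes whose calls were lost were named beyond this rule with their values seen. So were Mrpl32, Mrpl42, Mrpl43, Nrf1, Gabpa, Yy1, Myc, Chchd1 and Ptcd3. Alternatives were normexp on all spots, offset 16, the scanner software's processed signals, the authors' table, median centring, a stricter and no filter on dim probes, saturated spots left out, the mean over probes, and each replicate left out.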

Additional observations from a re-analysis of the deposited data

How the results depend on the processing

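The tested ratio within each array already pairs the genotypes of 1 replicate number, so there was no further pairing to fit as a block. Median centring moved the all-gene median to -0.26 and gave 762 genes higher and 9576 lower, members at 0 higher and 72 lower, and a member median of -0.52. With normexp fitted on all spots 2322 genes were higher. The scanner software's processed signals and the authors' deposited table each left 15 lower members, all among the 25. In these settings 3702 and 3614 of all genes were lower, against 4599 in the main setting. Member medians were 0.0022 and 0.0040, above all-gene medians of -0.0077 and -0.00675. Leaving out 1 replicate gave 7 to 11 higher and 17 to 19 lower members, member medians of -0.040 to -0.027, and 3123 to 3850 higher and 3484 to 4091 lower genes. Median centring put Mrpl10 at -0.40, Mrpl11 at -0.27, Mrpl33 at -0.50, Mrpl34 at -0.31, Mrpl36 at -0.20, Mrpl38 at -0.25, Mrpl4 at -0.39, Mrpl45 at -0.32, Mrpl52 at -0.40, Mrpl9 at -0.24, Mrps16 at -0.57, Mrps18a at -0.41, Mrps21 at -0.19, Mrps36 at -0.31, Mrps5 at -0.42 and Mrps6 at -0.39, all above 0 after loess. Mrpl28 turned to 0.025 with the scanner software's processed signals and 0.023 in the authors' table, and Mrpl38 to -0.022 with the mean over probes. The cause was not tested for any of these beyond the trend with brightness. Member counts and medians moved less under the other settings, and the filters and saturated spots did not change the ratio of any member.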
